A study of Mus musculus with 28 samples.

Results

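RNA-seq of the whole pancreas was compared between 6 A3B mice and 2 control mice, which are 8 of the 28 samples of the series. The samples were chosen by their titles: mice 44, 49, 53, 125, 137 and 153 are titled as A3B samples and mice 45 and 168 as controls. A3B mice carry human APOBEC3B (A3B), a cytosine deaminase of single-stranded DNA and RNA, fused to turboGFP at the ColA1 locus behind a tetracycline operator, together with the reverse transactivator rtTA3 under the ubiquitous CAGs promoter. Per the study's mouse list the controls carry the A3B transgene without rtTA3, and every mouse of both groups received doxycycline in its food for 10 days at 625 ppm. Mice started doxycycline as young adults at 4 weeks in the study's description, and A3B mice were taken at a humane end point while controls were not ill, so that illness and A3B expression cannot be told apart. A description elsewhere in the study has the controls without doxycycline. The genotype label of A3B pancreases 44 and 137 names the A3B transgene alone and that of both controls names A3B with CAGS-rtTA, against their titles. The transgene was not in the transcript index of the files, so its level could not be used to check the groups.

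Most of the pancreas is made of acinar cells, which synthesise digestive enzymes as inactive zymogens, fold them in a large endoplasmic reticulum and store them in zymogen granules until they are released into the ducts. Injured acinar cells are known to lose enzyme expression and to take on genes of duct cells. Cells that sense foreign or misplaced nucleic acid secrete type I interferon, which acts through its receptor and STAT proteins on a set of interferon-stimulated genes.

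Each library held between 74836907 and 87633469 estimated counts in the A3B group, 87288183 in control 45 and 95604352 in control 168. Genes at 1 TPM (a level per length that sums to the same total in every library) or above numbered 13220 to 14626 in the A3B pancreases, 7739 in control 45 and 11214 in control 168. The 10 most abundant genes took 12.0% to 20.4% of an A3B library, 62.2% of control 45 and 59.5% of control 168, and so the counts needed scaling before genes could be compared. TMM factors, which set most genes to a median change near 0, were 1.30 to 1.79 for the A3B libraries, 0.210 for control 45 and 0.443 for control 168. In what follows CPM stands for TMM-normalised counts brought to a common library size, and a log2 fold change is that of A3B over control on the TMM scale unless another is named. TPM values are not TMM-scaled, so their change between groups is not the fold change printed beside them. The control libraries stood further apart from each other than A3B libraries did, with a correlation across genes of log2(CPM + 1) of 0.930 against 0.965 to 0.979, and 0.851 to 0.902 between the groups.

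Of 19142 genes tested by edgeR's quasi-likelihood test, 3252 rose and 2848 fell in the A3B pancreases at an adjusted p under 0.05, which is 31.9% of all genes, 17% higher and 14.9% lower. All 6 A3B pancreases lay above both controls for 25.1% of the genes and below both for 18.9%. The median log2 fold change over all genes was 0.09 with TMM scaling, 0.60 when libraries were scaled on the genes outside the enzyme and granule lists and 2.29 when they were scaled on their total counts. Total-count scaling gave 13483 genes higher and 210 lower, and 2044 of the genes called with TMM changed sign. Scaling outside the enzymes gave 5365 higher and 1307 lower, with 4 changes of sign. Directions below are therefore relative to the bulk of genes, and in bulk tissue fewer cells of a type and less RNA per cell cannot be told apart. Of the called genes, 553 higher ones passed the filter on low counts only through the A3B pancreases and 68 lower ones only through the controls. In the lists below this held for at most 4 calls of a list, among them 4 of 4 rises of neutrophil, mast and dendritic cell markers, 4 of 10 of chemokines and cytokines, 3 of 7 of the necroptosis list and 4 of 52 of interferon-stimulated genes, and nothing is read from those calls, whose named genes are given without a p. Gene lists are described by their counts, to be read against those 17% and 14.9%, and by their median on the TMM scale, to be read against 0.09.

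**Figure D1:**
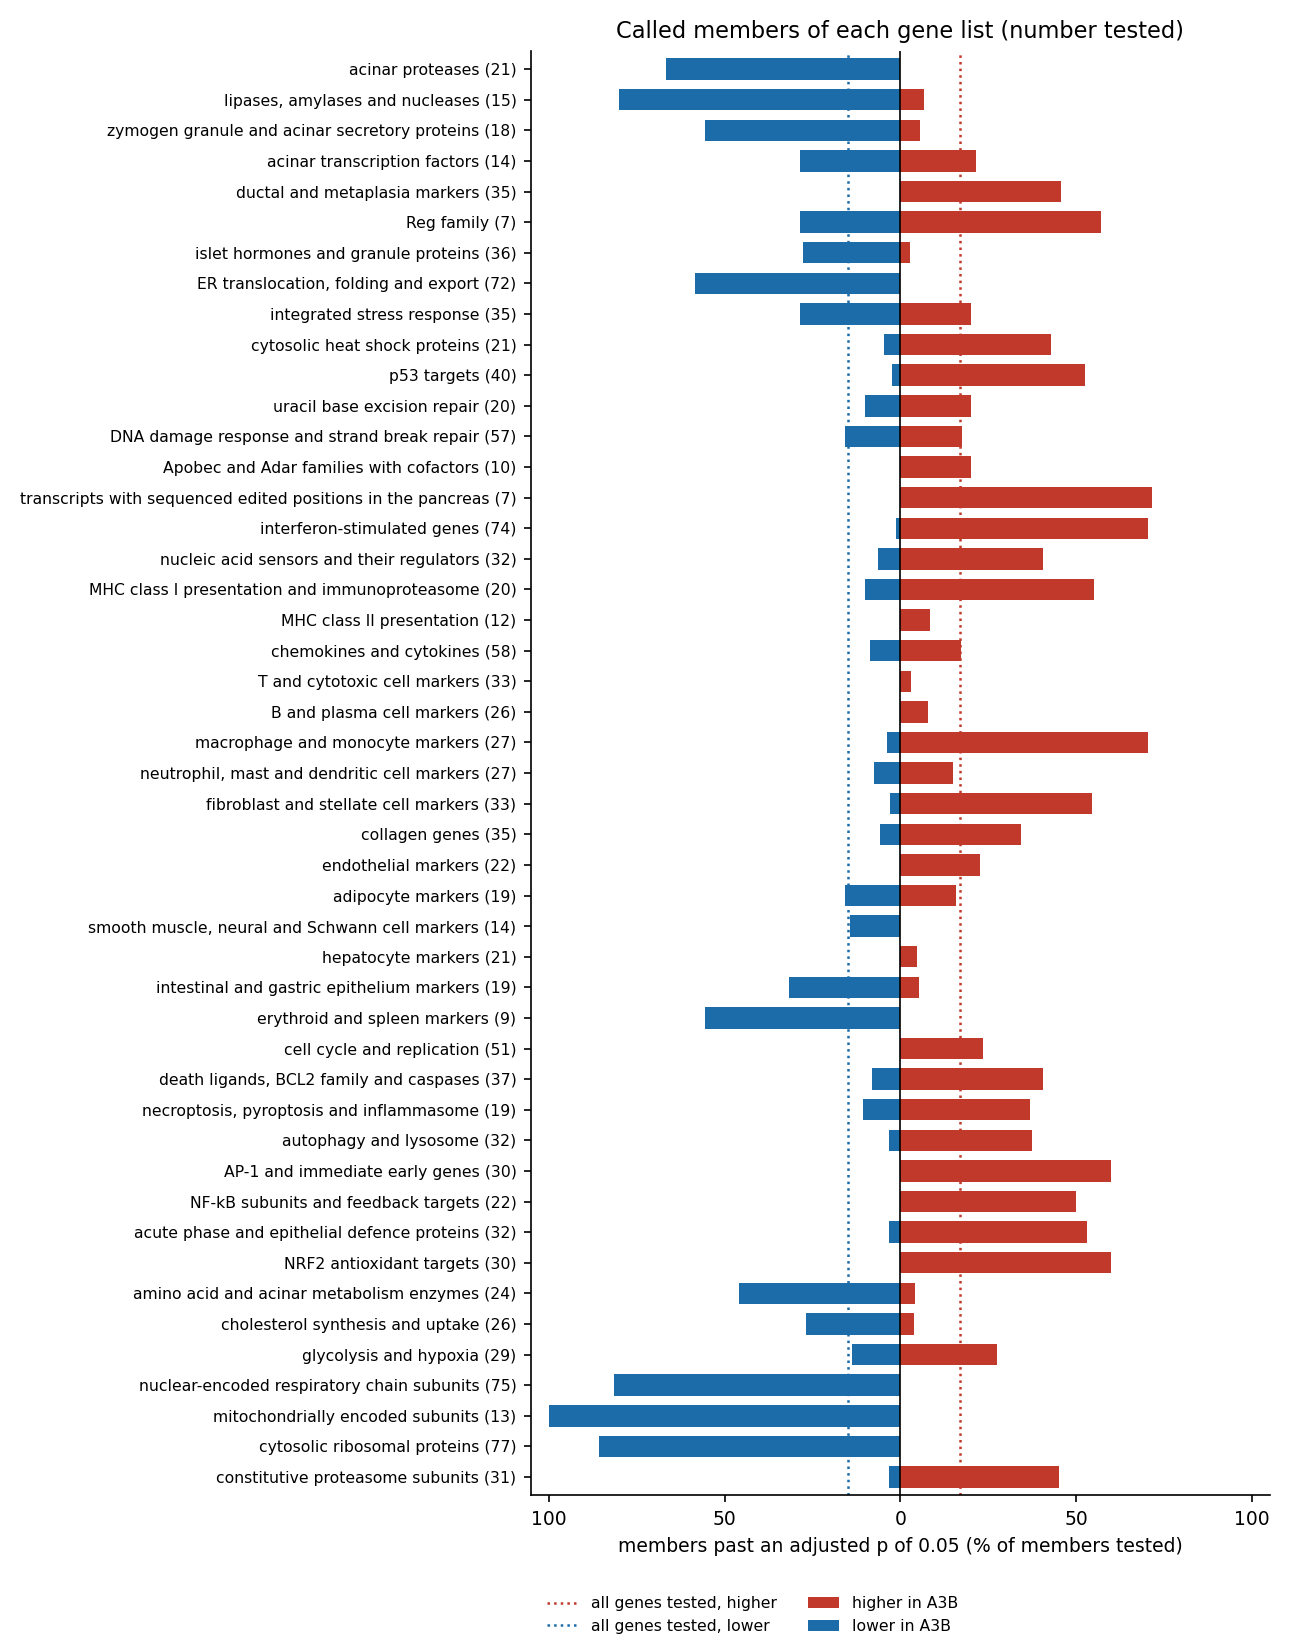
Share of the tested members of each gene list, other than the interferon ligands, that passed an adjusted p of 0.05 in edgeR's test, in percent of the members tested, higher in A3B to the right and lower to the left; the number tested stands in brackets and dotted lines mark the shares over all genes (17% and 14.9%). All 13 mitochondrially encoded genes lie to the left, and 52 of 74 interferon-stimulated genes lie to the right.

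The acinar digestive enzymes were lower in the A3B pancreases. Of 21 proteases tested, 14 fell, 0 rose and 7 did not pass the test, with a median log2 fold change of -3.61. Among 15 lipases, amylases and nucleases 12 fell, 1 rose and 2 did not pass, with a median of -4.82. The lists of enzymes and granule proteins together held 12.1% to 26.9% of the counts of an A3B pancreas, 77.8% of control 45 and 72.7% of control 168. Both medians stayed below 0 with total-count scaling (-1.10 and -2.44) and without control 45 (-2.43 and -4.07).

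The fall was uneven among the proteases. Cela1, an elastase (chr15:100674421-100687921 of GRCm38), was at 494 to 5444 TPM in the A3B pancreases (median 1711), 156927 in control 45 and 135096 in control 168. No A3B value came near a control, and the log2 fold change was -8.05 ± 0.97 (SE, adjusted p = 0.000355). Cela2a, another elastase, was at 5127 to 12939 TPM in the A3B pancreases (median 8303), 78195 in control 45 and 84878 in control 168, with a log2 fold change of -5.26 ± 0.54 (SE, adjusted p = 0.000203). Ctrc, the chymotrypsin that regulates trypsinogen activation, was at 28.7 to 485 TPM in the A3B pancreases (median 194), 6028 in control 45 and 4710.3 in control 168, and its fold change was -7.16 ± 1.03 (SE, adjusted p = 0.00125). These elastase and chymotrypsin genes also fell with total-count scaling, by 5.70, 2.94 and 4.71 on the log2 scale. The gene models of Ctrc and Cela2a overlap on the same strand of chromosome 4, so reads may be split between them. Cela3b, an elastase-like protease, was at 9894 to 20194 TPM in the A3B pancreases and at 30271 and 37094 TPM in the controls. On the TMM scale, where the fall is larger than in TPM, its log2 fold change was -3.61 ± 0.47 (SE, adjusted p = 0.000502).

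Carboxypeptidases, which trim amino acids from the end of peptides, fell as well. The basic-residue enzyme Cpb1 was at 1791 to 3230.2 TPM in the A3B pancreases (median 2084), 7015 in control 45 and 7223 in control 168, a log2 fold change of -3.70 ± 0.43 (SE, adjusted p = 0.000325). Cpa1 fell less, by 2.63 on the TMM scale (adjusted p = 0.0027), and its TPM overlapped between groups, with 3545 to 8769 TPM against 6700.2 and 7819. With total-count scaling Cpa1 did not pass the test, with a log2 fold change of -0.30.

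Ctrb1 and Try5 departed from this pattern, whereas Prss2 and Try4 were called lower. Ctrb1, chymotrypsinogen B (chr8:111686519-111691010), was the most abundant gene of every A3B pancreas, whereas Amy2a5 led both controls. In TPM, Ctrb1 was at 35179.7 to 113874 TPM in the A3B pancreases (median 70126), 25751 in control 45 and 24605 in control 168, so that all A3B values were above both controls. On the TMM scale its log2 fold change was -0.83 ± 0.60 (SE, adjusted p = 0.318), with overlapping groups, and with total-count scaling it was 1.54. The direction for Ctrb1 thus depended on the scale. Try5, a trypsin, behaved likewise: it was at 21773 to 42253 TPM in the A3B pancreases (median 25050.1), 12251 in control 45 and 8375 in control 168, its log2 fold change was -1.06 ± 0.53 (SE, adjusted p = 0.147) with TMM and 1.40 with total counts. Prss2, the main anionic trypsinogen, was at 17019 to 28193 TPM in the A3B pancreases (median 21189), 31429.7 in control 45 and 36499.5 in control 168 and fell with TMM by 3.03 on the log2 scale (adjusted p = 0.000886). Try4 ranged widely, at 542 to 21926 TPM in the A3B pancreases (median 7517), 29758 in control 45 and 12802 in control 168, with a fold change of -3.98 ± 1.08 (SE, adjusted p = 0.0208). Trypsin genes are near-identical copies, and kallisto divides shared reads among them, so values of single copies are uncertain. Without control 45 the call of Try4 was lost (adjusted p = 0.262), and without control 168 Try5 passed the test as lower (adjusted p = 0.0327).

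Enzymes of lipid and starch digestion fell as well. Pnlip, pancreatic triglyceride lipase (chr19:58652498-58681788), was at 219 to 1857 TPM in the A3B pancreases (median 499), 35134 in control 45 and 36336 in control 168. The log2 fold change of Pnlip was -7.83 ± 0.90 (SE, adjusted p = 0.000309) with TMM and -5.48 with total counts. Amy2a5, the pancreatic amylase gene with most of the counts (chr3:113247178-113258837), was at 407 to 3216 TPM in the A3B pancreases (median 1128), 37843 in control 45 and 41312 in control 168, with a fold change of -7.20 ± 0.79 (SE, adjusted p = 0.000258). The groups lay far apart for both genes. Clps, the colipase that anchors the lipase to fat droplets, was at 4016 to 9033 TPM in the A3B pancreases (median 5099), 30150.3 in control 45 and 29927 in control 168, with a fold change of -4.82 ± 0.47 (SE, adjusted p = 0.00017). Cel, the bile-salt-activated lipase, was at 1067 to 4478 TPM in the A3B pancreases (median 1739.98), 6546 in control 45 and 5916 in control 168, with a fold change of -4.21 ± 0.62 (SE, adjusted p = 0.000907). Rnase1, the secreted ribonuclease, was at 1021 to 3090.1 TPM in the A3B pancreases (median 1949), 5153 in control 45 and 5415 in control 168, with a fold change of -3.84 ± 0.50 (SE, adjusted p = 0.000512). Amy2b fell by 5.22 on the log2 scale (adjusted p = 0.00021), but the controls differed among themselves, at 252 and 2183 TPM. The 1 member called higher was Amy2a1, named after its values were seen: it was at 0.670 to 5298 TPM in the A3B pancreases (median 2201), 0 in control 45 and 0.243 in control 168 and passed the filter only through the A3B pancreases. Amy2a1 to Amy2a5 are near-identical copies and their reads cannot be assigned with certainty.

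**Figure D2:**
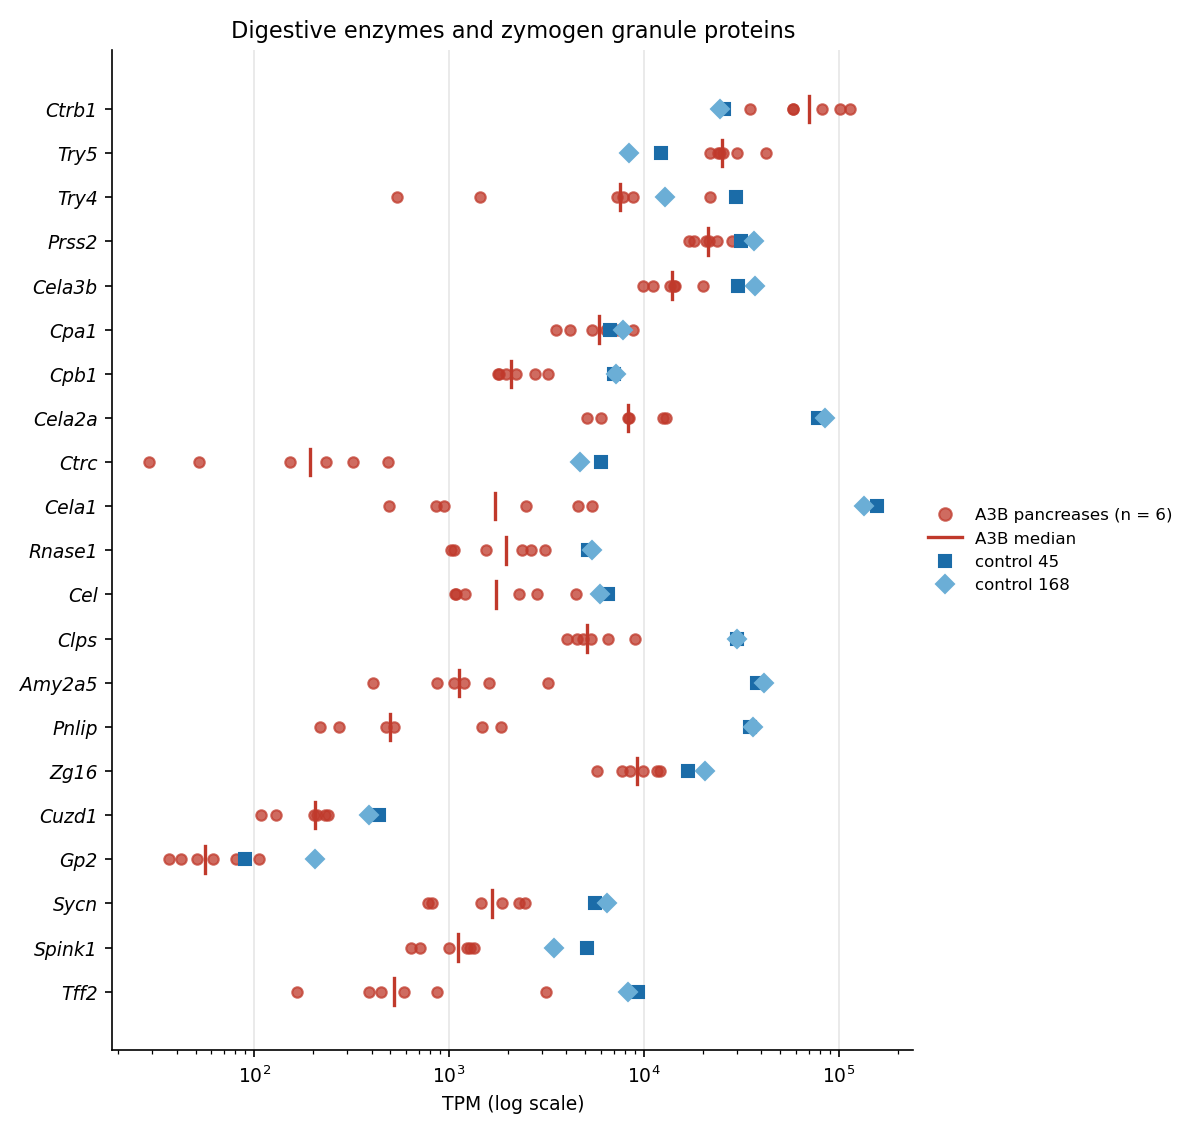
Level of digestive enzyme and zymogen granule genes in TPM on a log axis, one point per pancreas: circles are the 6 A3B pancreases, the bar is their median, the square is control 45 and the diamond is control 168. Cela1, Amy2a5 and Pnlip lie far below both controls, whereas Ctrb1 and Try5 lie above them on this per-length scale.

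Proteins of the zymogen granule followed the enzymes. Of 18 tested, 10 fell, 1 rose and 7 did not pass, with a median of -1.71, which became 0.63 with total-count scaling, below the median of 2.29 over all genes, and there were 3 higher and 9 lower with scaling outside the enzymes. Spink1, the trypsin inhibitor stored with the zymogens, was at 635 to 1336 TPM in the A3B pancreases (median 1113), 5088 in control 45 and 3453 in control 168, with a log2 fold change of -4.61 ± 0.44 (SE, adjusted p = 0.000163). Sycn, syncollin of the granule membrane, was at 783 to 2451 TPM in the A3B pancreases (median 1661), 5618 in control 45 and 6450.04 in control 168, with a fold change of -4.30 ± 0.49 (SE, adjusted p = 0.000308). Tff2, a trefoil peptide, was at 165 to 3133 TPM in the A3B pancreases (median 519), 9324 in control 45 and 8277 in control 168, with a fold change of -5.70 ± 0.92 (SE, adjusted p = 0.00196). Each of these was below both controls in every A3B pancreas. The lectin Zg16 fell by 3.36 on the log2 scale (adjusted p = 0.000604), Cuzd1 by 3.55 (adjusted p = 0.000438) and the membrane glycoprotein Gp2 by 3.38 (adjusted p = 0.000337). The member that rose was Stx3, a SNARE protein of granule fusion, at 28.5 to 51.6 CPM in the A3B pancreases (median 37.04), 25.1 in control 45 and 20.6 in control 168. Its adjusted p of 0.0493 lay just under the threshold, and the call was lost without either control and without A3B pancreas 49, 53, 125, 137 or 153 (adjusted p up to 0.201).

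Regulators of acinar identity did not move together. Of 14 tested, 3 rose (Mecom, Rbpj and Nr5a2), 4 fell (Bhlha15, Ptf1a, Rbpjl and Foxa3) and 7 did not pass, with a median of 0.01, against 6 higher and 2 lower with scaling outside the enzymes. Bhlha15, also called Mist1, which scales the secretory apparatus, was at 14.5 to 71.2 CPM in the A3B pancreases (median 30.97), 489.7 in control 45 and 164 in control 168, with a log2 fold change of -3.21 ± 0.57 (SE, adjusted p = 0.00333). Rbpjl, the acinar subunit of the PTF1 complex, was at 8.48 to 193 CPM in the A3B pancreases (median 35.6), 1224 in control 45 and 558 in control 168, with a fold change of -3.68 ± 0.93 (SE, adjusted p = 0.0173). Ptf1a, the factor that specifies acinar cells, was at 16.002 to 35.5 CPM in the A3B pancreases (median 26.2), 75.3 in control 45 and 45.9 in control 168, with a fold change of -1.19 ± 0.28 (SE, adjusted p = 0.0099). Rbpj, the Notch effector that Rbpjl replaces in mature acini, was at 37.6 to 50.2 CPM in the A3B pancreases (median 46.9), 18.3 in control 45 and 19.4 in control 168, with a fold change of 1.26 ± 0.20 (SE, adjusted p = 0.00136). The groups did not overlap for any of these. Mecom, a zinc finger factor, was higher at 27.9 to 49.2 CPM in the A3B pancreases (median 39.3), 10.9 in control 45 and 10.9 in control 168, with a fold change of 1.85 ± 0.26 (SE, adjusted p = 0.000738). Nr5a2, a nuclear receptor of acinar cells, had a fold change of 0.76 ± 0.26 (SE, adjusted p = 0.0475), a call that leaving out any of 6 single libraries ended (controls 45 and 168 and A3B pancreases 44, 125, 137 and 153, adjusted p up to 0.231). Gata4 overlapped between groups at 24.3 to 54.9 CPM against 38.5 and 17.2 (adjusted p = 0.292). Without control 45 none of the 4 falls was called, with adjusted p values of 0.0563 for Bhlha15, 0.14 for Rbpjl and 0.139 for Ptf1a. With total-count scaling Ptf1a had a log2 fold change of 1.10.

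Genes that translocate, fold and export secretory proteins fell alongside, with 42 of 72 lower, 0 higher and 30 not passing, and a median of -0.99, against 5 higher and 27 lower with scaling outside the enzymes. The median was -0.34 with scaling outside the enzymes and 1.35 with total counts, in each case below that of all genes. Pdia2, the pancreas-specific disulfide isomerase, was at 75.7 to 268 CPM in the A3B pancreases (median 153), 13602 in control 45 and 5706 in control 168, with a log2 fold change of -5.93 ± 0.48 (SE, adjusted p = 9.42e-05). Derl3, a component of ER-associated degradation, was at 1.07 to 3.61 CPM in the A3B pancreases (median 1.79), 139 in control 45 and 62.5 in control 168, with a fold change of -5.71 ± 0.43 (SE, adjusted p = 9.89e-05). Srp9, a subunit of the signal recognition particle, was at 37.4 to 65.5 CPM in the A3B pancreases (median 54.6), 725 in control 45 and 349.8 in control 168, with a fold change of -3.33 ± 0.29 (SE, adjusted p = 0.000128). For all of these every A3B value was below both controls. Dnajc3, an ER co-chaperone, fell by 1.81 on the log2 scale (adjusted p = 0.0012), though its fold change with total-count scaling was 0.56. The chaperone Hsp90b1, or GRP94, named after its values were seen, fell by 0.81 (adjusted p = 0.032), was at 1.45 with total counts, and lost its call without control 45 and without A3B pancreas 49, 53, 125, 137 or 153 (adjusted p up to 0.219). Among members not called, Hspa5, or BiP, had a log2 fold change of -0.80 ± 0.32 (SE, adjusted p = 0.0778) at 278 to 535 CPM in the A3B pancreases (median 328), 753 in control 45 and 502 in control 168. Hyou1 was at -0.39 (adjusted p = 0.374), Pdia4 at 0.33 (adjusted p = 0.401) and the translocon channel Sec61a1 at -0.42 (adjusted p = 0.302). Without control 45 the list had 26 calls lower and without control 168 it had 47. Hspa5 passed as lower without A3B pancreas 44, and in DESeq2.

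Promoters of the ER list were searched on both strands, in the 300 bases that RefSeq gives around each gene start (250 before to 50 after, GRCm38.p6), for the ER stress element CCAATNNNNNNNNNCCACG. It was found in 0.119% of all 32851 promoters, in a promoter of 0.137% of 27025 gene symbols and in 9 of 54 tested members with a promoter, namely 4 of 28 that fell and 5 of 26 that were not called. These windows are shown because the same letters stand before genes that fell and before one that was not called, with the element in capitals. They are chr10:75893237-75893266 (+ strand) for Derl3, chr14:118937822-118937851 (+ strand) for Dnajc3 and chr2:34772020-34772049 (+ strand) for Hspa5. In Derl3 the element reads on the opposite strand.
Derl3: tctacCGTGGGACTTCCCCATTGGctagcc
Dnajc3: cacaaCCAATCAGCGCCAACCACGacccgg
Hspa5: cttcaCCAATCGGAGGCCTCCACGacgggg

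Acinar metabolism fell with the enzymes: 11 of 24 genes of amino acid supply and acinar metabolism were lower, 1 was higher (Ckb) and 12 did not pass, with a median of -1.04 (1.27 with total counts), against 4 higher and 11 lower with scaling outside the enzymes. Fkbp11, a prolyl isomerase of secretory cells, was at 6.19 to 13.6 CPM in the A3B pancreases (median 7.84), 1109 in control 45 and 432 in control 168, with a log2 fold change of -6.50 ± 0.38 (SE, adjusted p = 2.97e-05). Slc38a5, a glutamine transporter, was at 0.488 to 2.51 CPM in the A3B pancreases (median 1.33), 144 in control 45 and 81.4 in control 168, with a fold change of -6.35 ± 0.51 (SE, adjusted p = 0.000144). Gatm, which makes the creatine precursor, was at 14.6 to 45.01 CPM in the A3B pancreases (median 30.04), 323 in control 45 and 253 in control 168, with a fold change of -3.34 ± 0.36 (SE, adjusted p = 0.000255). Gnmt, a glycine methyltransferase, fell by 2.79 on the log2 scale (adjusted p = 0.00296). None of the A3B values of these 4 genes reached a control. In cholesterol synthesis and uptake 7 of 26 genes fell and 1 rose (Hsd17b7), with a median of -0.49, and 3 fell without control 45, against 2 higher and 2 lower with scaling outside the enzymes. In glycolysis and hypoxia 8 of 29 rose and 4 fell (Pdk1, Vegfa, Higd1a and Tpi1), with a median of 0.47, and 4 rose without control 45, against 12 higher and 3 lower with scaling outside the enzymes.

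Respiratory chain and ribosome genes were lower relative to the bulk of genes. All 13 mitochondrially encoded subunits fell, with a median of -3.30, which was -0.78 with total counts. mt-Co1, of cytochrome oxidase, was at 1229 to 2891 CPM in the A3B pancreases (median 1727), 13631 in control 45 and 8768 in control 168, with a log2 fold change of -2.58 ± 0.39 (SE, adjusted p = 0.00101). mt-Atp6, of ATP synthase, was at 173 to 341 CPM in the A3B pancreases (median 211), 3233 in control 45 and 1525 in control 168, with a fold change of -3.39 ± 0.34 (SE, adjusted p = 0.000191). Groups did not overlap for either. mt-Nd1 of complex I fell by 2.51 (adjusted p = 0.000606) and mt-Cytb by 3.37 (adjusted p = 0.000292) on the log2 scale. Of 75 nuclear-encoded subunits 61 fell, 0 rose and 14 did not pass, with a median of -1.74, and of 77 cytosolic ribosomal proteins 66 fell, 0 rose and 11 did not pass, with a median of -1.80. Both medians turned above 0 with total-count scaling (0.69 and 0.61) but stayed under the median of all genes.

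Cox4i1, a nuclear cytochrome oxidase subunit, was at 204 to 368 CPM in the A3B pancreases (median 261), 1604 in control 45 and 727 in control 168, with a log2 fold change of -2.08 ± 0.35 (SE, adjusted p = 0.00188). Ndufa4 fell by 2.71 on that scale (adjusted p = 0.000509) and Sdhb, of succinate dehydrogenase, by 0.96 (adjusted p = 0.0116). Among ribosomal proteins Rpl13a was at 882 to 2369 CPM in the A3B pancreases (median 1906), 20332 in control 45 and 7454 in control 168, with a fold change of -2.96 ± 0.46 (SE, adjusted p = 0.0012). Control 45 was above control 168 for each gene given by value here, and the A3B pancreases were below both. Rps3 fell by 2.27 (adjusted p = 0.00173), Rpl3 by 1.79 (adjusted p = 0.0251) and Rplp0 by 1.39 (adjusted p = 0.0117). With total counts Cox4i1, Sdhb, Rpl3, Rplp0 and Rps3 had log2 fold changes above 0, of 0.33, 1.34, 0.51, 0.98 and 0.12. Without control 45 only 27 ribosomal proteins were called lower, and the calls of Sdhb, Rpl3 and Rplp0 were lost (adjusted p = 0.162, 0.125 and 0.137). The call of Rpl3 was also lost without control 168 or A3B pancreas 137 (adjusted p up to 0.125).

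**Figure D3:**
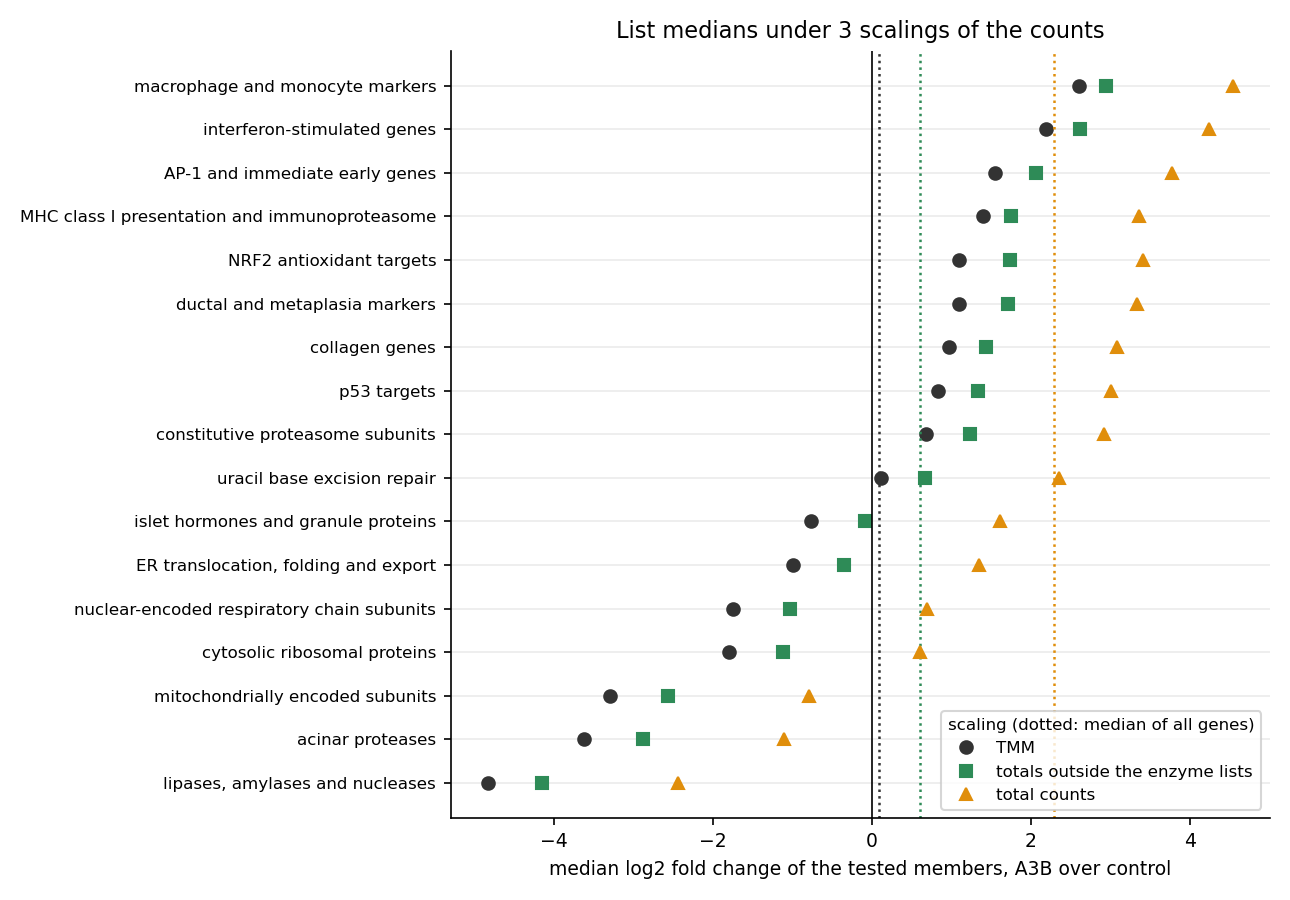
Median log2 fold change, A3B over control, of the tested members of 17 gene lists under TMM scaling (circles), scaling on totals outside the enzyme and granule lists (squares) and total-count scaling (triangles); dotted lines mark the medians over all genes (0.09, 0.60 and 2.29). Ribosomal, nuclear-encoded respiratory chain, ER and islet lists cross 0 between scalings and lie left of the dotted line of each scaling. The mitochondrially encoded list stays below 0 under each.

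Most islet genes did not pass the test, and the direction of the list depended on the scale. In TPM the listed islet genes summed to 3963 to 13654 in the A3B pancreases, 3508 in control 45 and 3594 in control 168. Of 36 tested, 10 fell, 1 rose and 25 did not pass, with a median of -0.76 with TMM and -0.09 when scaled outside the enzymes, where 3 rose and 4 fell. Ins1, one of the mouse insulin genes, was at 207 to 725 CPM in the A3B pancreases (median 365), 1968 in control 45 and 783 in control 168, with a log2 fold change of -1.79 ± 0.50 (SE, adjusted p = 0.021). Iapp, co-secreted with insulin, was at 107 to 261 CPM in the A3B pancreases (median 170.1), 846 in control 45 and 425 in control 168, with a fold change of -1.91 ± 0.35 (SE, adjusted p = 0.00265). Mafa, a beta cell transcription factor, was at 0.227 to 0.710 CPM in the A3B pancreases (median 0.370), 3.51 in control 45 and 1.49 in control 168, with a fold change of -2.65 ± 0.53 (SE, adjusted p = 0.00413). Ins2, the other insulin gene, overlapped between groups, with a fold change of -1.26 ± 0.55 (SE, adjusted p = 0.102). The alpha cell hormone gene Gcg ranged from 65.6 to 539.8 CPM in A3B against 398 and 172 and was not called (adjusted p = 0.973). Sst, of delta cells, was at -1.52 on the log2 scale (adjusted p = 0.0724) and Ppy, of pancreatic polypeptide cells, at -0.92 (adjusted p = 0.148). Without control 45 there were 2 calls lower, and those of Ins1 and Mafa were lost (adjusted p = 0.28 and 0.0608). Ins1 and Iapp had fold changes of 0.60 and 0.45 with total counts, above 0.

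Genes of duct cells and of acinar-to-ductal metaplasia rose: 16 of 35 were higher, 0 lower and 19 did not pass, with a median of 1.10, and 3.33 with total counts. Krt7, a duct keratin, was at 47.4 to 149 CPM in the A3B pancreases (median 83.1), 11.6 in control 45 and 9.84 in control 168, with a log2 fold change of 3.03 ± 0.48 (SE, adjusted p = 0.00142). Krt19, the usual duct marker, was at 102 to 366 CPM in the A3B pancreases (median 255), 27.7 in control 45 and 65.7 in control 168, with a fold change of 2.33 ± 0.59 (SE, adjusted p = 0.0136). Krt8, a keratin of simple epithelia, was at 451 to 1117 CPM in the A3B pancreases (median 839.5), 189.9 in control 45 and 153 in control 168, with a fold change of 2.18 ± 0.45 (SE, adjusted p = 0.00505). All 6 A3B pancreases were above both controls for these keratins. Cldn4, a tight junction protein, was at 136 to 610.03 CPM in the A3B pancreases (median 235), 4.33 in control 45 and 3.82 in control 168, with a fold change of 6.13 ± 0.70 (SE, adjusted p = 0.000306). Mmp7, a metalloprotease of metaplastic ducts, was at 41.01 to 294 CPM in the A3B pancreases (median 143), 2.74 in control 45 and 3.86 in control 168, with a fold change of 5.58 ± 1.03 (SE, adjusted p = 0.00407). Spp1, osteopontin, was at 675 to 1801 CPM in the A3B pancreases (median 1027), 253 in control 45 and 142 in control 168, with a fold change of 2.56 ± 0.53 (SE, adjusted p = 0.00498). The duct transcription factor Sox9 overlapped between groups and did not pass the test, at -0.09 on the log2 scale (adjusted p = 0.853). Without control 45 the call of Krt19 was lost (adjusted p = 0.0962).

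The Reg family of secreted lectins, which are abundant in injured pancreas, divided. Reg2, Reg3a, Reg3b and Reg3g rose, Reg1 and Reg4 fell and 1 of the 7 did not pass, with a median of 3.996. Reg3b was at 5855 to 19319 CPM in the A3B pancreases (median 11306), 99.8 in control 45 and 1266 in control 168, with a log2 fold change of 4.11 ± 1.04 (SE, adjusted p = 0.0132). Reg2 was at 5656 to 10683 CPM in the A3B pancreases (median 8675), 167 in control 45 and 689 in control 168, with a fold change of 4.27 ± 0.71 (SE, adjusted p = 0.0017). Reg3a was at 435 to 2464 CPM in the A3B pancreases (median 1028), 5.75 in control 45 and 84.4 in control 168, with a fold change of 4.83 ± 1.19 (SE, adjusted p = 0.0142). In each of these the A3B pancreases lay above both controls, and control 168 lay above control 45. The fold change of Reg3g was 3.996 ± 1.09 (SE, adjusted p = 0.0207). Reg1 was at 6976 to 10658 CPM in the A3B pancreases (median 9062), 38228 in control 45 and 15958 in control 168, with a fold change of -1.63 ± 0.42 (SE, adjusted p = 0.015) on the TMM scale and 0.77 with total counts, and its call was lost without control 45 (adjusted p = 0.196). Reg4 was high in control 168 alone, at 0.0178 to 0.168 CPM in the A3B pancreases (median 0.0857), 0 in control 45 and 24.3 in control 168, so that its fall rests on that library. The Reg3 genes are close copies and may share reads.

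Acute phase and epithelial defence genes rose in 17 of 32, with 1 lower (Saa1), 14 not passing and a median of 1.66. Lcn2, lipocalin 2, which sequesters bacterial iron carriers (chr2:32384633-32388252), was at 1251 to 5681 CPM in the A3B pancreases (median 3165), 10.5 in control 45 and 4.98 in control 168. Its lowest A3B value was far above both controls, and the log2 fold change was 8.81 ± 0.97 (SE, adjusted p = 0.000265). Cp, ceruloplasmin, was at 167 to 287 CPM in the A3B pancreases (median 219.7), 36.5 in control 45 and 41.96 in control 168, with a fold change of 2.49 ± 0.30 (SE, adjusted p = 0.000352). Socs3, the feedback inhibitor of IL-6 family signalling, was at 45.6 to 91.1 CPM in the A3B pancreases (median 61.8), 4.49 in control 45 and 9.32 in control 168, with a fold change of 3.20 ± 0.42 (SE, adjusted p = 0.000545). Complement C3 rose by 2.10 (adjusted p = 0.0242), a call lost without control 45 (adjusted p = 0.11). Saa1 was at 0.169 to 1.40 CPM in the A3B pancreases (median 0.627), 0.493 in control 45 and 318 in control 168: control 168 alone was high, and without it the fold change was 0.41. Without control 45 the list had 10 calls higher.

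Interferon-stimulated genes rose. Of 74 tested, 52 rose, 1 fell (Ifi27) and 21 did not pass, with a median of 2.19, which was 2.62 and 4.24 under the other scalings. Without control 45 there were 46 calls higher and without control 168 there were 62. Usp18, the protease that removes ISG15 from proteins, was at 115 to 252 CPM in the A3B pancreases (median 129), 4.38 in control 45 and 2.99 in control 168, with a log2 fold change of 5.33 ± 0.46 (SE, adjusted p = 0.000126). Irf7, the factor that amplifies type I interferon, was at 150.02 to 349 CPM in the A3B pancreases (median 246), 11.01 in control 45 and 9.98 in control 168, with a fold change of 4.53 ± 0.42 (SE, adjusted p = 0.000153). Ifit3, which binds viral RNA together with Ifit1, was at 62.5 to 147 CPM in the A3B pancreases (median 104), 4.98 in control 45 and 5.71 in control 168, with a fold change of 4.29 ± 0.41 (SE, adjusted p = 0.00017). No A3B pancreas overlapped a control for these genes. Isg15, the ubiquitin-like modifier, was at 32.9 to 114 CPM in the A3B pancreases (median 73.4), 5.37 in control 45 and 4.95 in control 168, with a fold change of 3.90 ± 0.50 (SE, adjusted p = 0.000476). Oas3, which makes the activator of RNase L, was at 35.5 to 72.4 CPM in the A3B pancreases (median 44.2), 0.274 in control 45 and 0.948 in control 168, and passed the filter only through the A3B pancreases. Oasl1, of the same family, was at 30.5 to 40.9 CPM in the A3B pancreases (median 34.9), 3.01 in control 45 and 2.47 in control 168, with a fold change of 3.69 ± 0.26 (SE, adjusted p = 6.06e-05). Oasl1 likewise did not overlap between groups.

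Ifit1 rose by 3.85 on the log2 scale (adjusted p = 0.00045), Rtp4 by 4.04 (adjusted p = 0.000104) and the GTPase Mx1 by 2.87 (adjusted p = 0.00396). Rsad2, or viperin, was at 71.7 to 143 CPM in the A3B pancreases (median 73.4), 12.5 in control 45 and 5.19 in control 168, with a fold change of 3.37 ± 0.47 (SE, adjusted p = 0.000733). Its neighbour Cmpk2, a mitochondrial nucleotide kinase, rose by 1.68 (adjusted p = 0.00565). All of these were above both controls in every A3B pancreas. Ifi27, a mitochondrial protein induced by interferon and named after its values were seen, was at 30.1 to 45.2 CPM in the A3B pancreases (median 39.6), 133 in control 45 and 94.1 in control 168, with a fold change of -1.57 ± 0.22 (SE, adjusted p = 0.000654), and 0.69 with total counts.

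**Figure D4:**
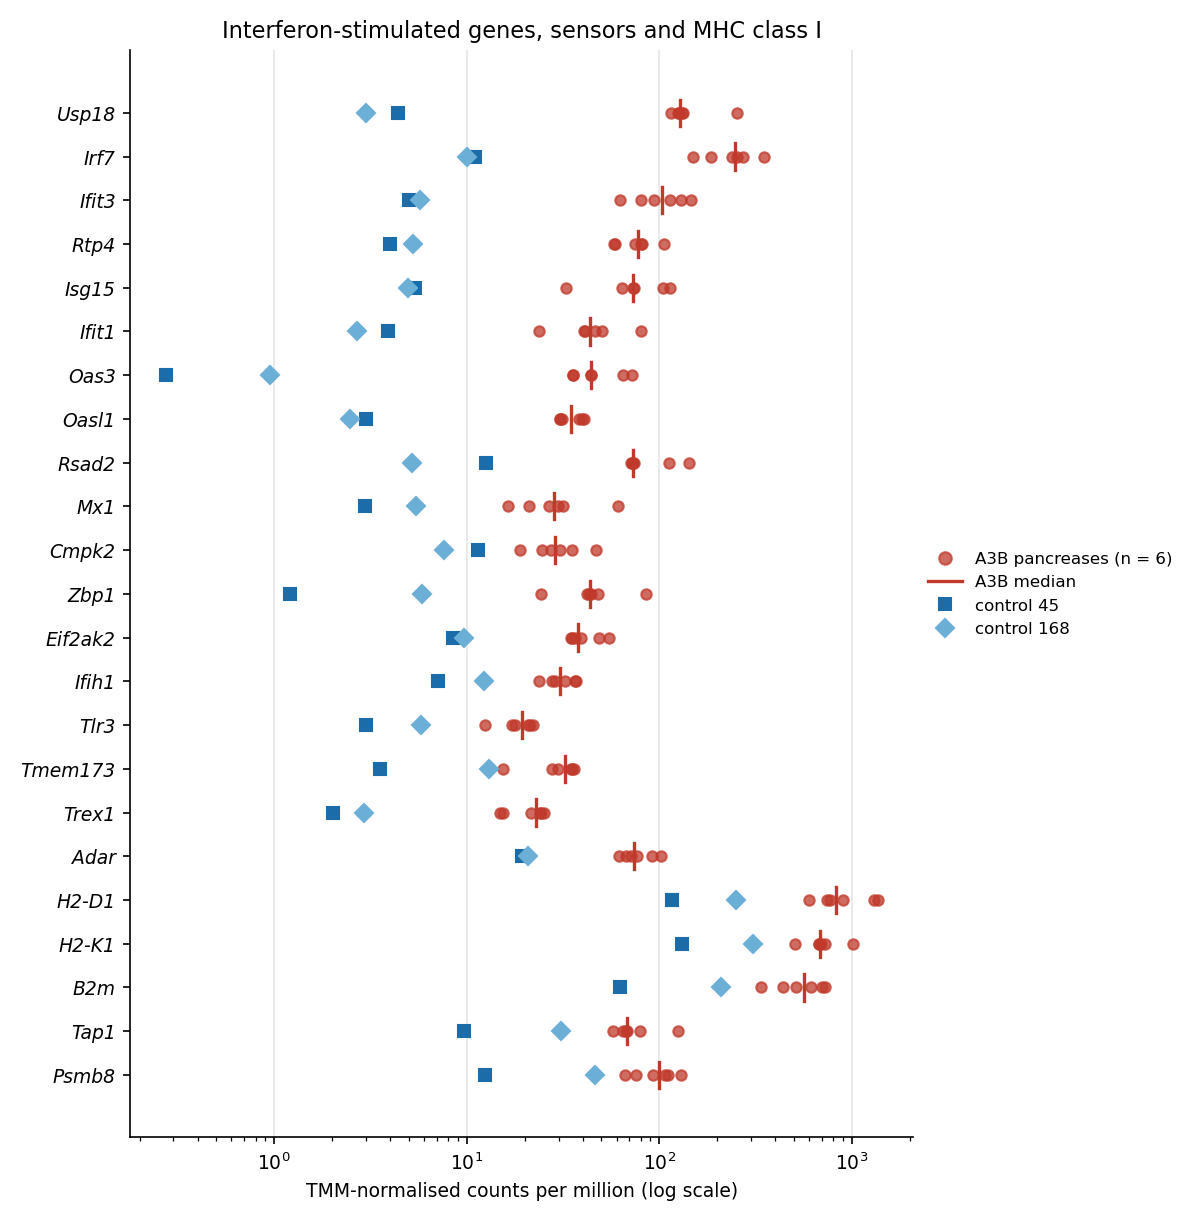
TMM-normalised counts, in CPM, on a log axis, of interferon-stimulated genes, nucleic acid sensors and MHC class I genes, one point per pancreas: circles are the 6 A3B pancreases, the bar is their median, the square is control 45 and the diamond is control 168. A3B circles lie right of both controls in every row.

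Promoters of the list were searched on both strands for the letters GAAANNGAAA, the core of the interferon-stimulated response element to which STAT and IRF factors bind. They were present in 3.44% of the 32851 RefSeq promoters, in a promoter of 3.99% of 27025 gene symbols and in 31 of 58 tested members with a promoter, namely 24 of 42 that rose and 7 of 16 that were not called. The windows of 30 bases below are shown because they precede the strongly raised genes described above, with the matching letters in capitals, in lower case the bases beside them and from 5′ to 3′ on the strand of the gene. They are chr4:156200871-156200900 (- strand) for Isg15, chr5:120777715-120777744 (- strand) for Oas3, chr19:34583397-34583426 (+ strand) for Ifit3, chr19:34640794-34640823 (+ strand) for Ifit1 and chr12:26456553-26456582 (- strand) for Rsad2. In Ifit3, Ifit1 and Rsad2 the element reads on the opposite strand.
Isg15: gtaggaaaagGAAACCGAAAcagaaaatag
Oas3: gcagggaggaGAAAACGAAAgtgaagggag
Ifit3: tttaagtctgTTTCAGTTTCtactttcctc
Ifit1: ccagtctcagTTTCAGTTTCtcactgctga
Rsad2: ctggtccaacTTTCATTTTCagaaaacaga

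Transcripts of the interferons themselves were scarce. Of 17 listed genes 4 passed the filter on low counts, and Ifnb1, Ifnz and Ifnk did so only through the A3B pancreases, so that no test is given for them. Ifnb1, interferon beta (chr4:88522025-88522774), had 14 to 28 counts in the A3B pancreases and 0 in both controls, or 0.124 to 0.215 CPM. The A3B mean was at least 1.48-fold the mean of the controls when each control was set to 3 counts. That setting was taken as the upper limit of counting error at a count of 0. In control 45 alone 3 counts amount to 0.164 CPM, within the A3B range of Ifnb1. Ifnz had 15 to 45 counts in A3B and 0 in both controls, at least 1.75-fold higher. Ifnk had 5 to 23 counts in A3B and 0 in both controls, and its mean of 0.0946 CPM in A3B was below the 0.118 CPM that 3 counts amount to on average in the controls, so that no fold is given. Ifng, interferon gamma of lymphocytes, was at 0.0561 to 0.188 CPM in the A3B pancreases (median 0.0947), 0 in control 45 and 0.284 in control 168 (adjusted p = 0.73). The 13 others, mostly of the interferon alpha family, had 0 counts in the controls and at most 9.8 counts in any A3B pancreas.

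Among 32 sensors of nucleic acid and their regulators 13 rose, 2 fell (Rnaseh2c and Irf3) and 17 did not pass, with a median of 1.46, against 17 higher and 0 lower with scaling outside the enzymes. Zbp1, which binds left-handed nucleic acid and can trigger necroptosis, was at 24.4 to 84.9 CPM in the A3B pancreases (median 43.7), 1.20 in control 45 and 5.88 in control 168, with a log2 fold change of 3.71 ± 0.69 (SE, adjusted p = 0.00384). Trex1, the exonuclease that degrades cytosolic DNA, was at 14.96 to 25.3 CPM in the A3B pancreases (median 22.8), 2.03 in control 45 and 2.94 in control 168, with a fold change of 3.06 ± 0.33 (SE, adjusted p = 0.000255). Tlr3, the endosomal receptor of double-stranded RNA, was at 12.5 to 21.98 CPM in the A3B pancreases (median 19.3), 3.01 in control 45 and 5.76 in control 168, with a fold change of 2.07 ± 0.33 (SE, adjusted p = 0.00142). The A3B pancreases lay above both controls for each. Eif2ak2, the RNA-activated kinase PKR, rose by 2.19 (adjusted p = 0.000351) and Ifih1, the RNA helicase MDA5, by 1.67 (adjusted p = 0.00195). Eif2ak2 and Ifih1 are also counted among the interferon-stimulated genes above. Tmem173, or STING, the adaptor of cytosolic DNA sensing, rose by 1.83 (adjusted p = 0.0191), a call lost without control 45 (adjusted p = 0.0764). Mavs, the adaptor of the RNA helicases, was at 0.17 and not called (adjusted p = 0.65).

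Presentation on MHC class I rose in 11 of 20 genes, with 2 lower (Psmb10 and Cd1d1), 7 not passing and a median of 1.40. H2-D1, a class I heavy chain, was at 599 to 1364 CPM in the A3B pancreases (median 832), 116 in control 45 and 249 in control 168, with a log2 fold change of 2.37 ± 0.49 (SE, adjusted p = 0.00495). B2m, the light chain, was at 337 to 728 CPM in the A3B pancreases (median 563), 62.5 in control 45 and 209.8 in control 168, with a fold change of 2.03 ± 0.51 (SE, adjusted p = 0.0133). H2-K1 rose by 1.71 (adjusted p = 0.0112), the peptide transporter Tap1 by 1.93 (adjusted p = 0.0113) and the immunoproteasome subunit Psmb8 by 1.72 (adjusted p = 0.0202). All were above both controls in the 6 A3B pancreases, and control 168 was above control 45 in each. Without control 45 the list had 4 calls higher and those of B2m, H2-K1, Tap1 and Psmb8 were lost (adjusted p = 0.0685, 0.0721, 0.0565 and 0.0821). Without control 168 it had 16. Class I genes are close copies that share reads. Psmb10, another immunoproteasome subunit, was at 65.1 to 89.98 CPM in the A3B pancreases (median 84.96), 1577 in control 45 and 331 in control 168, with a fold change of -3.55 ± 0.41 (SE, adjusted p = 0.000316). Its gene lies 1873 bases from Ctrl, a chymotrypsin-like enzyme on the same strand of chromosome 8, and whether reads of Ctrl contribute was not tested.

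Few genes of MHC class II passed the test: 1 of 12 rose, the cathepsin Ctss, 0 fell and 11 did not pass, with a median of -0.15. H2-Aa was at 51.9 to 222 CPM in the A3B pancreases (median 115), 21.5 in control 45 and 250.2 in control 168 (adjusted p = 0.871) and the invariant chain Cd74 at 92.3 to 457 CPM in the A3B pancreases (median 175), 37.8 in control 45 and 255 in control 168 (adjusted p = 0.602). For both genes the controls lay on either side of most A3B values. Without control 168 the list had 6 calls higher. Ctss was at 159.7 to 432 CPM in the A3B pancreases (median 362), 4.66 in control 45 and 52.3 in control 168, with a log2 fold change of 3.55 ± 0.87 (SE, adjusted p = 0.0138).

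Of 58 chemokines and cytokines 10 or 17.2% rose, 5 or 8.6% fell (Ccl27a, Cxcl3, Ccl25, Il15 and Il18) and 43 did not pass. Over all genes the shares were 17% and 14.9%, so the rises were near the share of all genes. Of the 10 rises, 4 passed the filter on low counts only through the A3B pancreases. The median was 0.69, and there were 12 higher and 2 lower with scaling outside the enzymes. Lif, an IL-6 family cytokine, was at 11.3 to 26.4 CPM in the A3B pancreases (median 17.1), 1.04 in control 45 and 1.16 in control 168, with a log2 fold change of 4.02 ± 0.46 (SE, adjusted p = 0.000298). Tgfb1, the profibrotic growth factor, was at 23.6 to 38.02 CPM in the A3B pancreases (median 29.3), 5.37 in control 45 and 9.96 in control 168, with a fold change of 1.98 ± 0.32 (SE, adjusted p = 0.00145). Cxcl16, a membrane-bound chemokine, was at 47.6 to 99.1 CPM in the A3B pancreases (median 74.8), 7.01 in control 45 and 17.8 in control 168, with a fold change of 2.56 ± 0.43 (SE, adjusted p = 0.00192). These 3 did not overlap between groups. The neutrophil attractant Cxcl1 had 170 to 562 counts in A3B, 0 in control 45 and 20 in control 168. The classical inflammatory cytokines were low and not called: Il6 was at most 0.488 CPM in A3B, Il1b at most 1.35 and Tnf at most 5.04, with adjusted p values of 0.867, 0.482 and 0.432. The interferon-inducible chemokine Cxcl10 was at 2.50 to 15.3 CPM in the A3B pancreases (median 4.49), 3.34 in control 45 and 1.23 in control 168 (adjusted p = 0.16). Without control 168, which expressed more of these genes than control 45, 20 of the list were called higher and 1 lower.

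Targets of p53, the factor activated by DNA damage, rose in 21 of 40, with 1 lower (Rps27l), 18 not passing and a median of 0.83. Btg2, an antiproliferative target that is also an immediate early gene, was at 538 to 782 CPM in the A3B pancreases (median 619), 93.4 in control 45 and 67.7 in control 168, with a log2 fold change of 2.98 ± 0.35 (SE, adjusted p = 0.000318). Cdkn1a, the cell cycle inhibitor p21, was at 162 to 276 CPM in the A3B pancreases (median 197), 76.8 in control 45 and 17.04 in control 168, with a fold change of 2.14 ± 0.52 (SE, adjusted p = 0.011). Eda2r, a death receptor of the TNF family, was at 8.75 to 19.1 CPM in the A3B pancreases (median 14.5), 2.85 in control 45 and 4.41 in control 168, with a fold change of 1.93 ± 0.34 (SE, adjusted p = 0.00232). In these genes every A3B value was above both controls. Bbc3, or PUMA, rose by 1.44 (adjusted p = 0.00716), Bax by 0.75 (adjusted p = 0.048) and Mdm2, the ubiquitin ligase of p53, by 0.65 (adjusted p = 0.0305). Leaving out either control, or A3B pancreas 137 or 153, ended the calls of both Bax and Mdm2, and leaving out 49 or 53 that of Bax (adjusted p up to 0.243 and 0.143). Rps27l, a ribosomal protein paralogue, was at 58.9 to 248 CPM in the A3B pancreases (median 133), 3266 in control 45 and 1095 in control 168, with a fold change of -3.93 ± 0.48 (SE, adjusted p = 0.000398). Without control 45 the list had 13 calls higher.

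A list of 20 genes covered uracil base excision repair and enzymes of the nucleotide pool, such as Dut and Samhd1. Of these, 4 or 20% rose (Lig1, Apex1, Samhd1 and Tdg), 2 or 10% fell (Dut and Smug1) and 14 did not pass. Of all genes 17% rose and 14.9% fell, and the median of the list was 0.12 beside 0.09. There were 7 higher and 0 lower with scaling outside the enzymes. Without control 168 there were 2 higher and 3 lower, and without control 45 there were 4 and 0. Ung, the main uracil glycosylase, was at 3.77 to 5.55 CPM in the A3B pancreases (median 4.07), 5.59 in control 45 and 4.84 in control 168 (adjusted p = 0.578). Smug1, the other single-strand uracil glycosylase, was at 7.72 to 9.22 CPM in the A3B pancreases (median 8.44), 15.2 in control 45 and 14.03 in control 168, with a log2 fold change of -0.78 ± 0.19 (SE, adjusted p = 0.0115) and of 1.44 with total counts. The ligase Lig1 was at 24.9 to 43.8 CPM in the A3B pancreases (median 31.6), 4.98 in control 45 and 5.52 in control 168, with a fold change of 2.65 ± 0.32 (SE, adjusted p = 0.000347). Apex1, the abasic endonuclease, rose by 1.31 (adjusted p = 0.0106). The Smug1 call was lost without control 45 (adjusted p = 0.077) and the Apex1 call without control 168 (adjusted p = 0.0743). Of 57 genes of the damage response and strand break repair 10 or 17.5% rose, 9 or 15.8% fell and 38 did not pass, near the shares of all genes. The median was -0.04, and there were 16 higher and 0 lower with scaling outside the enzymes. Brca1 was at 15.7 to 33.99 CPM in the A3B pancreases (median 30.3), 10.02 in control 45 and 2.84 in control 168, with a fold change of 2.14 ± 0.49 (SE, adjusted p = 0.00849). The kinases Atm and Chek1 were not called, at -0.06 and 0.57 on the log2 scale (adjusted p = 0.902 and 0.25). H2afx, the histone phosphorylated at breaks, rose by 0.90 (adjusted p = 0.0463), but its call was lost without control 168 and without A3B pancreas 44, 49, 53, 137 or 153 (adjusted p up to 0.264). In the damage list 4 were higher and 5 lower without control 45, and 4 and 7 without control 168.

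Of the mouse's own Apobec and Adar deaminases and their cofactors, 2 of 10 or 20% rose (Adar and Rbm47), 0 fell and 8 did not pass. Of all genes 17% rose, and the median of the list was 0.27. Adar, which edits adenosine to inosine in double-stranded RNA and is induced by interferon, was at 61.8 to 102 CPM in the A3B pancreases (median 74.1), 19.3 in control 45 and 20.8 in control 168, with a log2 fold change of 1.97 ± 0.26 (SE, adjusted p = 0.000572). Rbm47, a cofactor of Apobec1 editing, was at 50.9 to 91.8 CPM in the A3B pancreases (median 65.4), 40.97 in control 45 and 26.3 in control 168, with a fold change of 1.03 ± 0.29 (SE, adjusted p = 0.0217), a call lost without control 168 (adjusted p = 0.144). Apobec3, the only mouse member of the family of human A3B, was at 57.6 to 209 CPM in the A3B pancreases (median 121), 224 in control 45 and 81.5 in control 168 and not called (adjusted p = 0.69). Apobec1 was above both controls in all A3B pancreases, at 44.9 to 89.6 CPM in the A3B pancreases (median 51.6), 6.85 in control 45 and 34.7 in control 168, with an adjusted p of 0.067, and passed in DESeq2 and without control 168 (adjusted p = 0.00204). Adarb1 was not called (log2 fold change 1.11, adjusted p = 0.158). Of 7 genes whose transcripts the study sequenced for edited positions in the pancreas, a choice made on these samples and so no independent evidence, 5 rose and 2 did not pass. Cmip rose by 1.94 (adjusted p = 0.0014), and Larp4 was at -0.34 (adjusted p = 0.364).

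Of 51 cell cycle genes 12 rose, 0 fell and 39 did not pass, with a median of 0.23. The 12 were the replicative helicase genes Mcm2, Mcm3, Mcm4, Mcm5, Mcm6 and Mcm7, the initiation factor Mcm10, the licensing factors Cdt1 and Cdc6, the cyclins Ccne1 and Ccne2, and Hells. Mcm3 was at 12.2 to 28.5 CPM in the A3B pancreases (median 25.2), 3.01 in control 45 and 4.50 in control 168, with a log2 fold change of 2.59 ± 0.37 (SE, adjusted p = 0.000781). Cdt1 was at 10.01 to 16.3 CPM in the A3B pancreases (median 13.4), 2.36 in control 45 and 3.01 in control 168, with a fold change of 2.30 ± 0.30 (SE, adjusted p = 0.000479). Mcm2 rose by 1.35 (adjusted p = 0.0126), a call lost without either control (adjusted p = 0.054 without 45 and 0.0623 without 168). The general proliferation marker Mki67 overlapped between groups, at 9.07 to 35.002 CPM in the A3B pancreases (median 19.4), 27.1 in control 45 and 22.2 in control 168 (adjusted p = 0.63). Top2a, of mitotic chromosomes, was at 0.66 (adjusted p = 0.364) and cyclin D1, Ccnd1, at -0.16 (adjusted p = 0.774) on the log2 scale.

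Death regulators rose in 15 of 37 genes, with 3 lower (Casp9, Diablo and Birc2), 19 not passing and a median of 0.75, against 18 higher and 1 lower with scaling outside the enzymes. Bcl2l1, the survival factor BCL-XL, was at 98.96 to 207 CPM in the A3B pancreases (median 149.8), 31.4 in control 45 and 12.7 in control 168, with a log2 fold change of 2.81 ± 0.46 (SE, adjusted p = 0.00152). Casp8, the initiator caspase of death receptors, rose by 1.27 (adjusted p = 0.0122), a call lost without control 45 (adjusted p = 0.089). Casp9, the initiator caspase downstream of mitochondria (chr4:141793612-141815976, + strand), was at 16.7 to 64.8 CPM in the A3B pancreases (median 23.1), 1556 in control 45 and 413 in control 168, with a fold change of -4.81 ± 0.61 (SE, adjusted p = 0.000611). Its gene model overlaps Cela2a and Ctrc on the opposite strand, the sources used here do not say whether strand entered the quantification, and whether reads of these enzymes make up the Casp9 value was not tested. Of 19 genes of necroptosis, pyroptosis and the inflammasome 7 rose and 2 fell (Pycard and Il18), with a median of 0.92, against 7 higher and 0 lower with scaling outside the enzymes. Mlkl, which permeabilises the membrane in necroptosis, was at 16.2 to 29.7 CPM in the A3B pancreases (median 24.9), 1.92 in control 45 and 4.36 in control 168, with a fold change of 2.93 ± 0.38 (SE, adjusted p = 0.000468). Its upstream kinase Ripk3 did not pass (log2 fold change 1.33, adjusted p = 0.226), but was called higher without control 168 (adjusted p = 0.00147). Without control 45, 9 death regulators were called higher, and without control 168, 11 of the necroptosis list.

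Immediate early genes rose in 18 of 30, with 0 lower, 12 not passing and a median of 1.54. Ier3 was at 37.8 to 69.5 CPM in the A3B pancreases (median 55.7), 2.25 in control 45 and 2.28 in control 168, with a log2 fold change of 4.55 ± 0.35 (SE, adjusted p = 7.91e-05). Egr1, a growth factor-induced zinc finger, was at 38.2 to 51.02 CPM in the A3B pancreases (median 45.4), 3.29 in control 45 and 5.78 in control 168, with a fold change of 3.29 ± 0.29 (SE, adjusted p = 0.000129). Junb, an AP-1 subunit, was at 52.3 to 103 CPM in the A3B pancreases (median 88.1), 8.11 in control 45 and 15.6 in control 168, with a fold change of 2.77 ± 0.38 (SE, adjusted p = 0.000611). None of these overlapped between groups. Fos rose by 2.86 (adjusted p = 0.00528) and Jun by 1.28 (adjusted p = 0.0419), and the call of Jun was lost without control 168 and without A3B pancreas 44, 53, 125, 137 or 153 (adjusted p up to 0.149). Of 22 NF-kB subunits and feedback targets 11 rose and 0 fell, with a median of 1.002, and 6 rose without control 45.

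Antioxidant genes controlled by NRF2 rose in 18 of 30, with 0 lower, 12 not passing and a median of 1.10. Srxn1, which repairs oxidised peroxiredoxins, was at 67.9 to 119.99 CPM in the A3B pancreases (median 93.5), 9.48 in control 45 and 10.6 in control 168, with a log2 fold change of 3.17 ± 0.30 (SE, adjusted p = 0.000159). Gclc, the catalytic subunit of glutathione synthesis, was at 135 to 233 CPM in the A3B pancreases (median 171), 17.2 in control 45 and 24.4 in control 168, with a fold change of 3.07 ± 0.33 (SE, adjusted p = 0.000249). Hmox1, heme oxygenase, was at 38.97 to 89.4 CPM in the A3B pancreases (median 48.5), 4.22 in control 45 and 10.6 in control 168, with a fold change of 2.84 ± 0.46 (SE, adjusted p = 0.0015). All 6 A3B pancreases were above both controls in these. Gclm, the partner of Gclc, rose less, by 0.64 (adjusted p = 0.0344), and lost its call without either control and without A3B pancreas 44, 137 or 153 (adjusted p up to 0.189). Nqo1, often used as a marker of NRF2, was at 3.40 to 4.42 CPM in the A3B pancreases (median 4.22), 2.41 in control 45 and 4.60 in control 168 (adjusted p = 0.697). Without control 168 the list had 11 calls higher. The antioxidant response element core TGACNNNGC, searched on both strands, was present in 12.4% of all RefSeq promoters, in a promoter of 13.99% of gene symbols and in 10 of 24 tested members with a promoter, 8 of 13 that rose and 2 of 11 that were not called.

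Lists of protein quality control outside the ER had more calls higher than lower. Of 21 cytosolic heat shock proteins 9 rose, 1 fell (Hspe1, of the mitochondrion) and 11 did not pass, with a median of 0.86. Hspb1, a small heat shock protein, was at 97.4 to 363 CPM in the A3B pancreases (median 223), 17.03 in control 45 and 17.4 in control 168, with a log2 fold change of 3.77 ± 0.52 (SE, adjusted p = 0.000694). Hsp90ab1, the constitutive HSP90, was at 969 to 1633 CPM in the A3B pancreases (median 1241), 276 in control 45 and 335 in control 168, with a fold change of 2.06 ± 0.38 (SE, adjusted p = 0.00279). Hspa8, the constitutive HSC70, rose by 1.54 (adjusted p = 0.0135), a call lost without control 168 (adjusted p = 0.0558). The stress-induced Hspa1a did not pass (adjusted p = 0.248). Of 31 constitutive proteasome subunits 14 rose and 1 fell (Psmd6), with a median of 0.68, against 24 higher and 0 lower with scaling outside the enzymes. Psmd1, of the regulatory particle, was at 65.02 to 115 CPM in the A3B pancreases (median 75.8), 21.7 in control 45 and 21.5 in control 168, with a fold change of 1.90 ± 0.27 (SE, adjusted p = 0.000789). Psma1, of the core, rose by 1.25 (adjusted p = 0.0023). Of 32 autophagy and lysosome genes 12 rose, 1 fell (Gabarapl2) and 19 did not pass, against 20 higher and 1 lower with scaling outside the enzymes. The median was 0.65, or 0.86 without control 45 and 0.57 without control 168.

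Genes of the integrated stress response, which ATF4 drives when translation is restrained, divided: of 35, 7 rose, 10 fell and 18 did not pass, with a median of -0.24, against 12 higher and 5 lower with scaling outside the enzymes (median 0.38). Atf4 was at 73.1 to 129.97 CPM in the A3B pancreases (median 106), 307 in control 45 and 202 in control 168, with a log2 fold change of -1.30 ± 0.27 (SE, adjusted p = 0.0054), of 1.01 with total counts, and lost its call without control 45 (adjusted p = 0.0686). Its partner Ddit3, or CHOP, was at 8.81 to 14.4 CPM in the A3B pancreases (median 11.2), 12.2 in control 45 and 11.4 in control 168 and did not pass (adjusted p = 0.863). Fgf21, a hormone that acinar cells secrete, was at 0.0336 to 0.309 CPM in the A3B pancreases (median 0.178), 14.1 in control 45 and 2.47 in control 168, with a fold change of -5.53 ± 0.75 (SE, adjusted p = 0.000661). Sesn2, which restrains mTORC1, was at 23.1 to 40.5 CPM in the A3B pancreases (median 33.2), 6.46 in control 45 and 3.67 in control 168, with a fold change of 2.70 ± 0.32 (SE, adjusted p = 0.000325). Both were clear of the controls in every A3B pancreas. Atf3 rose by 1.91 (adjusted p = 0.00586) and the pseudokinase Trib3 by 1.13 (adjusted p = 0.0207), the latter lost without control 168 (adjusted p = 0.113). Chac1 was high in control 45 alone, at 1.94 to 6.30 CPM in the A3B pancreases (median 2.52), 29.2 in control 45 and 2.49 in control 168, and its fall was lost or reversed on leaving out that control or A3B pancreas 44, 49, 53, 125 or 153 (adjusted p up to 0.666). Without control 45 there were 9 calls higher and 4 lower, and without control 168 there were 5 and 12.

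Markers of other cell types were followed in lists. Macrophage and monocyte markers rose in 19 of 27, with 1 lower (Lyz1), 7 not passing and a median of 2.60. Their summed level was 2326 to 5659 CPM in A3B, 371 in control 45 and 1681 in control 168. Cd68, a lysosomal protein of macrophages, was at 65.9 to 149 CPM in the A3B pancreases (median 102), 4.77 in control 45 and 7.80 in control 168, with a log2 fold change of 4.02 ± 0.42 (SE, adjusted p = 0.00021). C1qa, the complement subunit that tissue macrophages make, was at 248 to 652 CPM in the A3B pancreases (median 442), 32.8 in control 45 and 43.9 in control 168, with a fold change of 3.48 ± 0.46 (SE, adjusted p = 0.000524). Adgre1, or F4/80, was at 31.3 to 66.7 CPM in the A3B pancreases (median 51.7), 3.45 in control 45 and 7.85 in control 168, with a fold change of 3.13 ± 0.45 (SE, adjusted p = 0.000905). The groups did not overlap for these markers. Csf1r rose by 2.60 (adjusted p = 0.000993) and the Fc receptor Fcgr1 by 4.41 (adjusted p = 0.000365). Lyz2, lysozyme, overlapped with control 168, at 728 to 2118 CPM in the A3B pancreases (median 1255), 185 in control 45 and 1156 in control 168 (adjusted p = 0.257), and was called higher without it (adjusted p = 0.00747).

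Of 33 fibroblast and stellate cell markers 18 rose, 1 fell (Dpt) and 14 did not pass, with a median of 0.99 and a summed level of 2274 to 4291 CPM in A3B, 1478 in control 45 and 2203 in control 168. Without control 45 there were 11 calls higher. Pdgfra was at 40.3 to 77.2 CPM in the A3B pancreases (median 60.6), 9.86 in control 45 and 18.6 in control 168, with a log2 fold change of 2.07 ± 0.36 (SE, adjusted p = 0.00212). Pdgfrb, of stellate cells and pericytes, was at 31.8 to 49.7 CPM in the A3B pancreases (median 38.1), 11.9 in control 45 and 11.6 in control 168, with a fold change of 1.73 ± 0.23 (SE, adjusted p = 0.000574). Timp1, the metalloprotease inhibitor, was at 15.3 to 48.6 CPM in the A3B pancreases (median 26.9), 0.931 in control 45 and 2.92 in control 168, with a fold change of 3.88 ± 0.61 (SE, adjusted p = 0.00165). All lay above both controls. Acta2, the actin of activated myofibroblasts, and Des, desmin, were not called, with fold changes of -0.77 ± 0.55 (SE, adjusted p = 0.31) and -1.16 ± 0.44 (SE, adjusted p = 0.0712). Des had its highest value in control 168 (55.1 CPM) and passed as lower without control 45 and in DESeq2. Of 35 collagen genes 12 rose, 2 fell (Col25a1 and Col7a1) and 21 did not pass, with a median of 0.97. Col1a1 of fibrillar collagen was at 291 to 657 CPM in the A3B pancreases (median 382), 50.99 in control 45 and 50.7 in control 168, with a fold change of 3.04 ± 0.41 (SE, adjusted p = 0.000606). Col4a1 of basement membrane was at 388 to 607 CPM in the A3B pancreases (median 441), 94.8 in control 45 and 87.7 in control 168, with a fold change of 2.34 ± 0.32 (SE, adjusted p = 0.000606). Col1a2 and Col3a1 rose by 2.85 and 2.07 (adjusted p = 0.000678 and 0.00296). Of 22 endothelial markers 5 rose (Selp, Icam1, Cdh5, Lyve1 and Vcam1), 0 fell and 17 did not pass, with a median of 0.37. There were 12 higher and 0 lower with scaling outside the enzymes. Cdh5, the junctional cadherin, rose by 0.96 (adjusted p = 0.0183), a call lost without control 45 (adjusted p = 0.127), and Pecam1 was not called (adjusted p = 0.137).

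Lymphocyte markers were unlike between the controls. T and cytotoxic cell markers summed to 64.5 to 238 CPM in A3B, 27.1 in control 45 and 277 in control 168, and of 33 tested 1 was called higher (Gzmb), 0 fell and 32 did not pass, with a median of -0.01 that was -0.92 without control 45 and 3.51 without control 168. Cd3e, of the T cell receptor complex, was at 0.370 to 6.49 CPM in the A3B pancreases (median 0.926), 0.383 in control 45 and 7.61 in control 168 (adjusted p = 0.467), and Cd8a at 0.672 to 7.86 CPM in the A3B pancreases (median 1.43), 0.493 in control 45 and 10.7 in control 168 (adjusted p = 0.399). Control 168 was above every A3B pancreas for both genes and control 45 was near the low end. Without control 168, 14 of the list were called higher, and without control 45, 0 were higher and 1 lower. Cd4 was at 2.98 to 15.9 CPM in the A3B pancreases (median 5.82), 0.219 in control 45 and 10.2 in control 168 (adjusted p = 0.801), and was called higher without control 168 (adjusted p = 0.0191). Granzyme B, Gzmb, was at 1.34 to 4.88 CPM in the A3B pancreases (median 2.36), 0.274 in control 45 and 0.687 in control 168, and passed the filter only through the A3B pancreases. B and plasma cell markers summed to 148 to 641 CPM in A3B, 66.7 in control 45 and 1035 in control 168, with a median of -1.49, or 2.04 without control 168. The B cell gene Ms4a1 reached 60.1 CPM in control 168 and at most 8.78 in A3B, and it was not called (adjusted p = 0.173). Of the 26 in that list 2 rose, Sdc1 and Prdm1, which epithelial cells also express, and 1 rose without control 45.

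The remaining lists describe cells that a dissected pancreas may carry. Of 27 neutrophil, mast and dendritic cell markers 2 fell (Ly6g and Cpa3) and 4 were called higher, each of which (Mmp8, Ltf, Csf3r and Siglecf) passed the filter on low counts only through the A3B pancreases, with a median of -0.59. There were 4 higher and 1 lower with scaling outside the enzymes. Without control 45 there were 2 higher and 4 lower, and without control 168 there were 4 and 1, with a median of 1.80. The neutrophil protein S100a8 was not called (adjusted p = 0.226). Adipocyte markers summed to 396 to 1130.5 CPM in A3B, 508 in control 45 and 1529 in control 168, with 3 of 19 higher (Cebpa, Pnpla2 and Cidea) and 3 lower (Acvr1c, Thrsp and Adrb3) and a median of -1.22, and without control 45 only 1 was higher. Adipoq was at 0.103 to 22.2 CPM in the A3B pancreases (median 0.973), 10.2 in control 45 and 104 in control 168 (adjusted p = 0.18). Intestinal and gastric markers summed to 45.9 to 133 CPM in A3B, 52.9 in control 45 and 421 in control 168, with 6 of 19 lower and a median of 1.32, of the opposite sign to these calls, against 2 higher and 5 lower with scaling outside the enzymes. The 1 member called higher, Muc5ac, passed the filter only through the A3B pancreases. Tff3 and Muc2, of goblet cells, reached 255 and 15.9 CPM in control 168 and 0.657 and 0.329 in control 45. Without control 168 none of the intestinal list was called lower. Hepatocyte markers summed to 235 to 1666 CPM in A3B, 775 in control 45 and 171 in control 168, with 1 of 21 higher (Ass1), 0 lower and a median of 0.75. The hepatocyte list without control 45 had 4 higher and a median of 5.64, and without control 168 it had 0 higher and a median of -0.14. Albumin, Alb, was at 11.8 to 809 CPM in the A3B pancreases (median 137), 286 in control 45 and 4.53 in control 168 (adjusted p = 0.757) and apolipoprotein Apoa1 at 2.87 to 67.95 CPM in the A3B pancreases (median 33.5), 31.9 in control 45 and 0.261 in control 168 (adjusted p = 0.624). Of 14 smooth muscle, neural and Schwann cell markers 2 fell (Cnn1 and S100b) and 0 rose, with a median of -0.68, against 2 higher and 0 lower with scaling outside the enzymes, and 1 fell without control 168.

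Erythroid and spleen markers summed to 16.5 to 281 CPM in A3B, 4619 in control 45 and 2724 in control 168, with 5 of 9 lower, 0 higher and a median of -4.21. Hbb-bs, a beta globin, was at 5.59 to 181 CPM in the A3B pancreases (median 34.3), 3142 in control 45 and 1890.3 in control 168, with a log2 fold change of -5.54 ± 0.99 (SE, adjusted p = 0.00383). Alas2, of heme synthesis in red cells, was at 0.391 to 2.66 CPM in the A3B pancreases (median 0.732), 23.4 in control 45 and 14.3 in control 168, with a fold change of -4.21 ± 0.60 (SE, adjusted p = 0.000968). Hba-a1, an alpha globin with a near-identical copy, fell by 4.81 (adjusted p = 0.00407). Every A3B pancreas was below both controls. The share of blood, lymphoid, fat or gut tissue in the values of control 168, and of blood in both controls, was not tested.

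**Figure D5:**
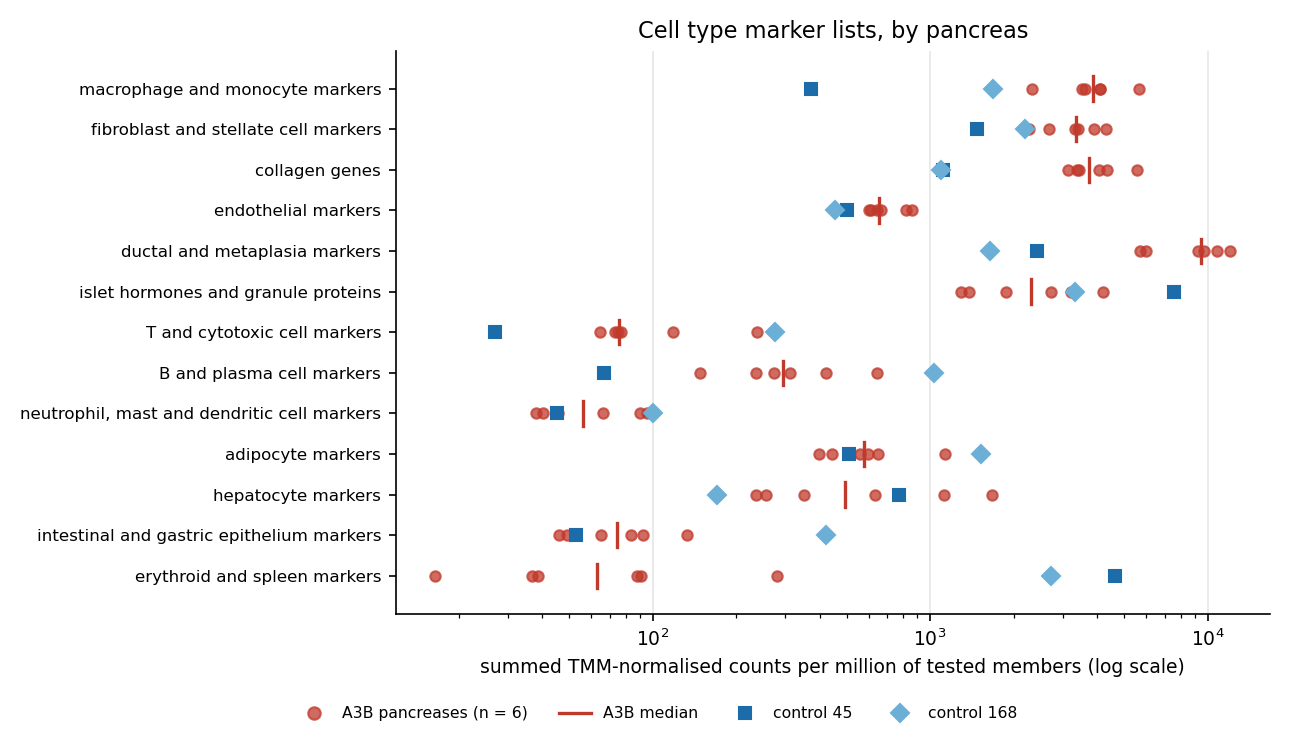
Summed TMM-normalised counts, in CPM, of the tested members of each cell type list, on a log axis, one point per pancreas: circles are the 6 A3B pancreases, the bar is their median, the square is control 45 and the diamond is control 168. Macrophage, collagen and ductal sums lie above both controls, erythroid sums lie below both, and control 168 is the highest pancreas for T cell, B cell, adipocyte and intestinal markers.

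Among all genes with at least 10 TPM on average in a group, the largest rises with no overlap between groups were of varied function. Slc26a9, an epithelial chloride transporter, was at 41.7 to 80.6 CPM in the A3B pancreases (median 57.1), 0.274 in control 45 and 0.190 in control 168. Cldn18, the stomach claudin, was at 14.5 to 39.9 CPM in the A3B pancreases (median 26.8), 0.438 in control 45 and 0 in control 168. Ctse, an aspartic protease of gastric epithelium, was at 39.1 to 116 CPM in the A3B pancreases (median 62.6), 0 in control 45 and 1.21 in control 168. These were near 0 in both controls. Chil3, a chitinase-like protein of macrophages, was at 6.97 to 64.8 CPM in the A3B pancreases (median 20.8), 0 in control 45 and 0.379 in control 168. Acot1, a fatty acyl-CoA thioesterase, was at 55.8 to 156 CPM in the A3B pancreases (median 111), 1.70 in control 45 and 1.85 in control 168, with a log2 fold change of 5.84 ± 0.52 (SE, adjusted p = 0.000136). Acox2, of peroxisomal oxidation, was at 15.7 to 70.7 CPM in the A3B pancreases (median 34.5), 0.931 in control 45 and 0.190 in control 168. Syt8, a synaptotagmin, had 0 counts in both controls and 3.32 to 11.1 CPM in A3B, at least 47.5-fold higher with 3 counts per control. All of these except Acot1 passed the filter on low counts only through the A3B pancreases, and their rank by fitted fold change is a description. The largest falls were mostly the enzymes above, with Fkbp11 and Slc38a5. Krtdap, of keratinocytes, was also among them, at 0.0252 to 0.103 CPM in the A3B pancreases (median 0.0410), 0.931 in control 45 and 11.7 in control 168, and passed the filter only through the controls.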

How the data were processed

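Per the labels, total RNA of each pancreas was sequenced from stranded libraries. The authors quantified the reads with kallisto on mouse transcripts (mm10 and GRCm38 in the submitters' notes) and deposited an estimated count, an effective length and a TPM value per transcript, without further normalization. Here 116728 of 119414 transcripts were matched to 35928 gene symbols with GENCODE M21 by unversioned identifier, unmatched ones were left out (0.225% to 0.842% of a library), and counts and TPM were summed per gene, the counts then rounded. Total counts per library were 74836907 to 95604352, and intervals and limits at 3 counts cover counting error only.

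After filterByExpr and TMM scaling, edgeR's quasi-likelihood test in its robust form compared 6 A3B with 2 control pancreases without covariates, with Benjamini-Hochberg adjustment over all 19142 genes and a threshold of 0.05. The samples are separate mice by number, and 2 controls limit every test. Groups came from the sample titles. Y-linked counts were 77 to 256 in A3B pancreases 44, 49 and 53 and 98 in control 45, read as female. They were 7643 to 11134 in A3B pancreases 125, 137 and 153 and 3812 in control 168, read as male. A fit without 1 control therefore leaves a control of 1 sex only. Whether sex contributes to the differences between the controls was not tested. The common biological coefficient of variation was 0.468. The fitting step was first run on simulated data in which few genes changed, up and down alike. Those data held no shift in the share of enzymes, so the run does not test TMM scaling here. Alternatives were DESeq2, 3 other scalings or units (total counts, totals outside the enzyme and granule lists, limma on log2(TPM + 1) for genes averaging 1 TPM or more), no low-count filter, length-scaled counts, sex read from Y-linked counts as a covariate, A3B pancreases 44 and 137 left out, each pancreas left out, and grouping by the genotype label.

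The 48 gene lists were written from general knowledge, and the members and lists were chosen with earlier results of these data known. Lists share some members, so their counts are not independent. Genes named are key members of a list by their role, up to 3 further members with the smallest p per list, and the 15 largest rises and falls among called genes that average 10 TPM or more in a group and have no overlap between groups. Amy2a1, Hsp90b1, Ifi27, Stx3 and others so marked were chosen after their values were seen. A few genes that the rule covers are not reported here. Promoter sequences are those of RefSeq for GRCm38.p6. The tests ran in R 4.3.3 using edgeR 4.0.16, limma 3.58.1 and DESeq2 1.42.0, and the tables in Python 3.11.15 using pandas 2.3.3, numpy 2.4.6 and matplotlib 3.10.9.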

Additional observations from a re-analysis of the deposited data

Results flagged for a closer look

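In 28 of the named genes 1 of the 6 A3B pancreases lay far from the other 5 by Dixon's test on TMM-normalised CPM. Chance flags about 1 in 20 groups, so that some of these are to be expected among 215 genes, and no explanation was weighed. A3B pancreas 125 stood apart for Adarb1 (40.9 CPM, median 13.4), Alas2 (2.66 CPM, median 0.732), Hbb-bs (181 CPM, median 34.3), Larp4 (84 CPM, median 53.8), Muc2 (0.336 CPM, median 0.0551), Psma1 (62.3 CPM, median 83.7), Tff2 (849 CPM, median 147), Tff3 (5.41 CPM, median 1.03). A3B pancreas 137 stood apart for Cldn4 (610.03 CPM, median 235). A3B pancreas 153 stood apart for Fkbp11 (13.6 CPM, median 7.84), Syt8 (11.1 CPM, median 4.63). A3B pancreas 44 stood apart for Clps (2704 CPM, median 1445), Psmd1 (115 CPM, median 75.8), Sox9 (20.04 CPM, median 10.9), Try4 (9433 CPM, median 3248), Usp18 (252 CPM, median 129). A3B pancreas 49 stood apart for Cd3e (6.49 CPM, median 0.926), Cd4 (15.9 CPM, median 5.82), Cd8a (7.86 CPM, median 1.43), Cxcl10 (15.3 CPM, median 4.49), Il1b (1.35 CPM, median 0.406), Mx1 (61.1 CPM, median 28.3), Tap1 (125 CPM, median 67.7), Tnf (5.04 CPM, median 1.38). A3B pancreas 53 stood apart for Hmox1 (89.4 CPM, median 48.5), S100a8 (8.88 CPM, median 1.29), mt-Atp6 (341 CPM, median 211), mt-Nd1 (529.9 CPM, median 356).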

How the results depend on the processing

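With 3252 genes higher and 2848 lower as the main counts, leaving out 1 pancreas at a time gave 2063 to 3133 higher and 1763 to 2689 lower, the lowest of each without control 45. Without both A3B pancreases whose genotype label goes against the title there were 2255 and 2119. Total-count scaling gave 13483 and 210, scaling outside the enzyme lists 5365 and 1307, and limma on log2(TPM + 1), whose values are also per total, 11405 and 152 of 13597 genes. DESeq2, no filter on low counts, length-scaled counts and sex as a covariate stayed within 1.5 times of the main counts. Grouping by the genotype label in place of the title gave 0 and 0 by edgeR, with 1165 genes at an unadjusted p under 0.05. No paired analysis was possible because A3B and control pancreases came from different mice that share no number.

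Signs of log2 fold changes turned as follows, and the cause was not tested beyond the shift that each scaling adds to all genes. With total-count scaling 40 of 215 named genes turned: Acta2 1.29, Apobec3 2.17, Atf4 1.01, Atm 1.98, Ccnd1 2.15, Cd3e 0.79, Cd8a 0.67, Chac1 0.46, Cox4i1 0.33, Ctrb1 1.54, Ddit3 2.17, Des 0.79, Dnajc3 0.56, H2-Aa 1.67, Hsp90b1 1.45, Hspa5 1.47, Hyou1 1.85, Iapp 0.45, Ifi27 0.69, Ifng 1.46, Il1b 0.80, Il6 1.63, Ins1 0.60, Ins2 1.10, Larp4 1.93, Mki67 2.02, Ppy 1.46, Ptf1a 1.10, Reg1 0.77, Rpl3 0.51, Rplp0 0.98, Rps3 0.12, S100a8 0.59, Sdhb 1.34, Sec61a1 1.94, Smug1 1.44, Sox9 2.06, Sst 0.94, Try5 1.40, Ung 1.99. With limma on log2(TPM + 1) 37 turned: Acta2 1.38, Apobec3 2.02, Atf4 0.99, Atm 1.56, Ccnd1 1.79, Cd3e 0.51, Cd8a 0.24, Chac1 0.48, Cox4i1 0.29, Ctrb1 1.47, Ddit3 1.69, Des 1.11, Dnajc3 0.54, H2-Aa 2.73, Hsp90b1 1.44, Hspa5 1.58, Hyou1 1.64, Iapp 0.42, Ifi27 0.45, Ins1 0.50, Ins2 0.99, Larp4 2.01, Mki67 1.19, Ppy 1.32, Ptf1a 1.04, Reg1 0.79, Rpl3 0.31, Rplp0 1.02, Rps3 0.052, S100a8 0.25, Sdhb 1.34, Sec61a1 1.74, Smug1 1.25, Sox9 1.41, Sst 0.83, Try5 1.43, Ung 1.43. With scaling outside the enzymes 12 turned: Apobec3 0.44, Atm 0.35, Ccnd1 0.47, Ddit3 0.49, H2-Aa 0.084, Hyou1 0.19, Il6 0.035, Larp4 0.25, Mki67 0.34, Sec61a1 0.24, Sox9 0.42, Ung 0.33. Without A3B pancreases 44 and 137 together 4 turned, Alb -0.0082, Atm 0.030, Ddit3 0.017, Gcg -0.41, and with length-scaled counts 2, Atm 0.40, Larp4 0.043.

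Leaving out 1 pancreas turned the sign of 23 named genes, most often by way of a control, with these ranges over the 8 fits: Alb -0.14 to 5.85, Apobec3 -0.84 to 0.62, Atm -0.49 to 0.62, Ccnd1 -0.40 to 0.17, Cd3e -2.20 to 2.26, Cd4 -0.54 to 4.995, Cd74 -0.24 to 2.51, Cd8a -2.18 to 2.26, Chac1 -3.09 to 0.46, Ddit3 -0.15 to 0.0058, Des -1.84 to 0.30, Gcg -0.43 to 0.79, H2-Aa -1.06 to 2.48, Ifng -1.29 to 6.60, Il1b -2.02 to 8.81, Il6 -1.13 to 7.89, Ms4a1 -4.46 to 2.05, Nqo1 -0.18 to 0.75, Reg4 -8.05 to 6.26, Saa1 -8.91 to 0.41, Sec61a1 -0.84 to 0.20, Tff3 -7.29 to 1.30, Try5 -1.67 to 0.086. A fit without 1 control leaves a single control, which is assumed to vary like the A3B group. By Y-linked counts that control is male without control 45 and female without control 168. The 2 controls had similar total counts but TMM factors of 0.210 (control 45) and 0.443 (control 168). After scaling, 3 counts amounted to 0.164 CPM in control 45 and 0.0711 CPM in control 168. Low genes are less certain in the controls, and most so in control 45.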
